A study of Mus musculus with 4 samples.

Results

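The Krüppel-like factors are a family of transcription factors, and 9 of their genes, Klf2, Klf3, Klf4, Klf6, Klf7, Klf9, Klf10, Klf11 and Klf13, are described here. They were taken by gene name from the annotation of the arrays, every non-control probe of a named gene being kept, which gave 11 probes out of 39429 and 9 genes out of 31709 names. Imatinib, a tyrosine kinase inhibitor of ABL, KIT and the PDGF receptors, was present at 10 µM in the cultures of one group and absent from those of the control group. Both groups were spleen cells of female C57BL/6 mice aged 8 weeks, held for 72 h in a medium with IL-4 and LPS, signals that activate B cells and drive class switching. Each group had 2 Agilent arrays of a single colour (Cy3). Nothing in the labels says that the paired samples came from separate animals or cultures, so the p-values measure the spread between these samples, which may be technical. Spleen cells are a mixture of B cells, T cells, macrophages and others, and in such a bulk sample fewer cells of a type and less RNA per cell cannot be told apart. Of the 39429 probes, 25191 and 26758 were well above background on the imatinib arrays, against 25335 and 25017 on the control arrays. Signals correlated across tested probes with r = 0.9982 between the imatinib arrays, 0.9972 between the control arrays and 0.9824 to 0.9841 between arrays of different groups.

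Krüppel-like factors bind GC-rich and CACCC-type elements in DNA through zinc fingers near the C terminus, which are alike across the family, while the remainder of the protein differs and sets whether a member activates or represses. Klf2, Klf4, Klf6 and Klf7 belong to the branch known mainly for activation, Klf3 to the branch that represses through the corepressor CtBP, and Klf9, Klf10, Klf11 and Klf13 to the branch that binds the corepressor Sin3A. In lymphocytes the family is known for quiescence and traffic: Klf2 keeps resting T and B cells out of the cell cycle and controls receptors for homing and for exit from lymphoid organs, and it is lost from cells that are activated.

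Expression of 7 of the 9 genes rose with imatinib, 1 fell and 1 did not pass the test. Klf2 and Klf6 rose most, by 2.53-fold and 2.37-fold. Klf4, Klf10, Klf11, Klf3 and Klf13 followed, Klf9 fell and Klf7 differed by -0.12 on the log2 scale, short of the threshold. Among all genes tested, 41.1% passed in either direction, 19.4% as higher and 21.7% as lower. Over the 10 probes that were bright enough to test, 8 passed an adjusted p of 0.05 as higher with imatinib and 1 as lower, in a limma fit over all 25373 tested probes. The background was wide: 19.3% of all tested probes passed as higher and 22.5% as lower, so that 41.9% passed in either direction. Rises of at least 2-fold were seen on 2 of the 10 probes and on 6.1% of all, and falls of at least 2-fold on none of the 10 and on 1.3% of all. The median difference of the 9 genes was 0.59, against 0.01 for the 20498 genes tested, each gene being represented by its brightest probe. Groups did not overlap on any of the 10 probes, and did not for 73.7% of all tested probes.

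The size of the changes depended on how arrays were scaled, since the median difference over all probes was 0.00 in the main fit, -0.19 when arrays were centred on their median and -0.28 when they were scaled on spike-in RNA. The 9 genes then had medians of 0.40 and 0.30, and 7 of the 9 differences stayed positive under both. Over all probes the split of calls was 4905 higher and 5717 lower in the main fit, against 2802 higher and 11738 lower with spike-in scaling. The number of members' probes called higher was 8 in the main fit, 7 with median centring and 6 with spike-in scaling. It was 5 without imatinib replicate 1 and 4 without imatinib replicate 2, and it was 8 without either control array. Klf2, Klf4, Klf6 and Klf10 passed under each of the 13 alternative settings. Levels of the 9 genes cannot be set against each other, because each 60-base probe binds its target with its own strength, and all levels below are given per probe.

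The probes shown first are those on which the findings rest. Klf13 was measured by 2 probes with different sizes of change, Klf7 by a probe with a simple repeat, and Klf2, Klf6 and Klf9 had the largest rises and the fall. The probes of Klf13 and Klf7 are printed whole, and the others by their first 30 bases, 5′ to 3′ as in the array files. Capitals mark a run of a repeated unit.
Klf13 probe A_55_P2022082: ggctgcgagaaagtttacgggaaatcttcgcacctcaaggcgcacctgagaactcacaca
Klf13 probe A_55_P2244142: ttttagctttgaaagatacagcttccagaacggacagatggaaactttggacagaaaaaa
Klf7 probe A_55_P2040996: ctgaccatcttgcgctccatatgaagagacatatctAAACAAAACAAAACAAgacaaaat
Klf2 probe A_51_P144264, bases 1 to 30: tgtatataagactatgaccgattgtatttc
Klf6 probe A_51_P451346, bases 1 to 30: tttaatactaagcagtccattctggtcagg
Klf9 probe A_65_P19780, bases 1 to 30: gagcaaacaattttaacttcatgaatttgt

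The run in the Klf7 probe is 16 bases of a 5-base unit, whereas no other probe of the 9 genes held a run over 8 bases of a unit of 1 to 5 bases. GC content was 53.3% for the first Klf13 probe and at most 43.3% for the others. Cross-hybridisation among family members was not analysed here.

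The activating branch held both the largest rises and the gene with no call. Signals are log2 processed signals from which the array's own 75th percentile was subtracted. Klf2 had 3.43 and 3.37 on the imatinib arrays, against 2.12 and 2.00 on the control arrays. Both imatinib arrays were above both control arrays, and the distance between groups was many times that between arrays of a group. The difference was 1.34 (SE 0.073, adjusted p = 0.0015, 95% interval 1.14 to 1.54). In processed signal, before any scaling, Klf2 had 7541 and 7016 with imatinib, against 3209 and 3423 without. It was the largest change of the 9 genes, and 95.1% of all tested probes had a smaller absolute difference.

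Klf6, an early response gene that is also known as a regulator of macrophage inflammation, had 2.54 and 2.52 on the imatinib arrays, against 1.29 and 1.29 on the control arrays. Arrays of a group were nearly equal, and the groups stood apart by 1.24 (SE 0.057, adjusted p = 0.0011, 95% interval 1.09 to 1.40). The intervals of Klf2 and Klf6 overlapped. Within an array, where no scaling enters, the log2 ratio of the Klf2 to the Klf6 processed signal was 0.89 and 0.85 with imatinib, against 0.83 and 0.72 without. This ratio differed by 0.10 between the groups (exact permutation test, two-sided p = 0.333, the smallest that 2 against 2 arrays allow).

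Klf4, which promotes differentiation in epithelia and alternative activation of macrophages, was dimmer. Its signal was -1.33 and -1.39 on the imatinib arrays, against -2.26 and -2.07 on the control arrays. The control arrays were less alike than the imatinib arrays, and still lay below both. The difference was 0.81 (SE 0.091, adjusted p = 0.0069), or 1.75-fold.

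Klf7, best known from neurons, had 1.63 and 1.64 on the imatinib arrays, against 1.77 and 1.74 on the control arrays. Groups did not overlap, but the difference of -0.12 (SE 0.057, 95% interval -0.27 to 0.04) did not pass (adjusted p = 0.18). With median centring it was -0.30 (adjusted p = 0.034) and with spike-in scaling -0.40 (adjusted p = 0.012), so its call rests on the scaling. Its adjusted p over the 13 alternatives ran from 0.012 to 0.63.

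**Figure D1:**
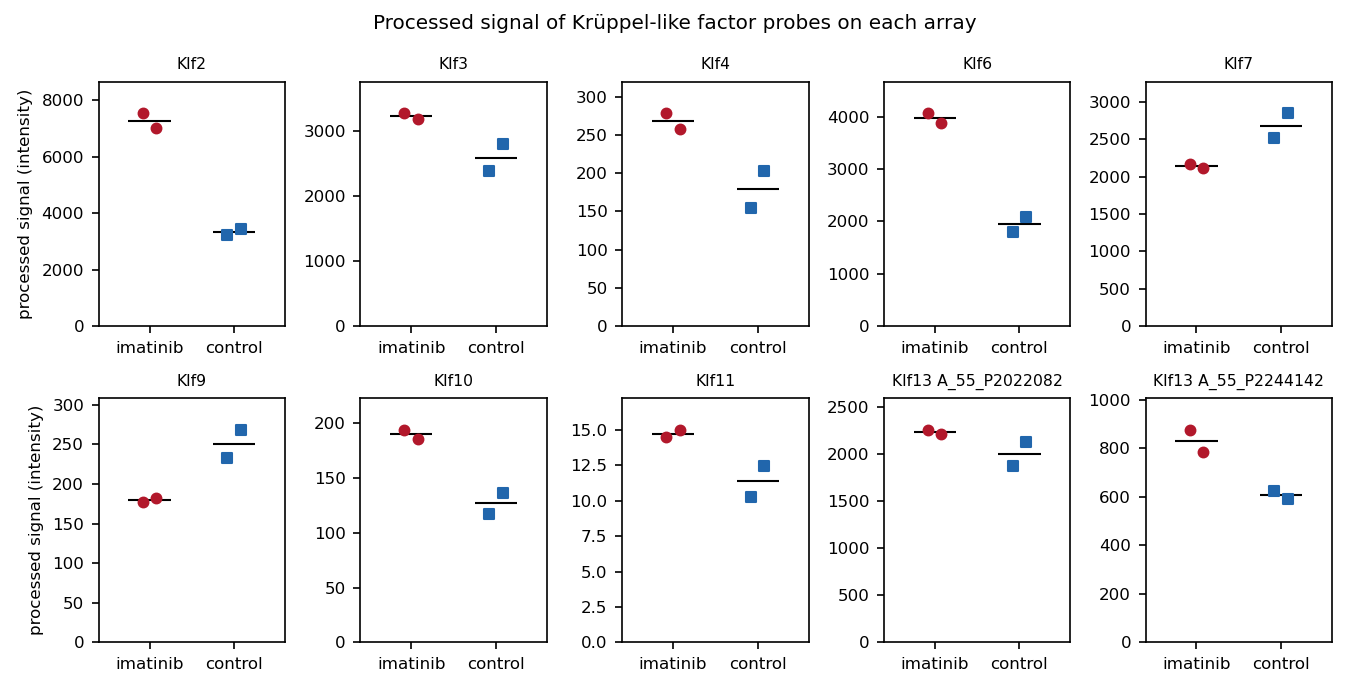
Processed signal (intensity, linear axis from 0, a separate axis for each probe) of the 10 tested Krüppel-like factor probes. Points are single arrays, with imatinib as circles and control as squares, and lines are group means. Both imatinib arrays lie above both control arrays on 8 probes and below them for Klf7 and Klf9, as with the Klf2 values of 7541 and 7016 against 3209 and 3423.

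In the branch that works through CtBP, Klf3 had 2.22 and 2.23 on the imatinib arrays, against 1.68 and 1.71 on the control arrays. The groups stood apart by 0.53 (SE 0.057, adjusted p = 0.0063), and arrays of a group differed by far less. Klf3 is a repressor that shapes B cell development in mice. Its call ended without imatinib replicate 1 (adjusted p = 0.051), without imatinib replicate 2 (adjusted p = 0.052) and with spike-in scaling, where the difference was 0.25 (adjusted p = 0.065).

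The branch that binds Sin3A moved in both directions. Klf10, which TGF-beta induces early and which restrains growth, had -1.85 and -1.87 on the imatinib arrays, against -2.66 and -2.64 on the control arrays. Both imatinib arrays were higher, by 0.79 on average (SE 0.057, adjusted p = 0.0028), or 1.73-fold. Klf11, its close relative and also induced by TGF-beta, had -5.59 and -5.50 on the imatinib arrays, against -6.17 and -6.10 on the control arrays. This probe was the dimmest of those tested, with a processed signal of 14.5 and 15.0 with imatinib and 10.3 and 12.5 without, yet was well above background on each array. Its difference of 0.59 (SE 0.070, adjusted p = 0.0077) became 0.26 under another background correction (normexp, adjusted p = 0.013), and the call ended without imatinib replicate 2 (adjusted p = 0.053) and with trend and robust fitting (adjusted p = 0.076).

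Klf13, which drives Ccl5 in T cells, rose on both of its probes. On A_55_P2022082 the signal was 1.69 and 1.71 on the imatinib arrays, against 1.34 and 1.32 on the control arrays, a difference of 0.37 (SE 0.057, adjusted p = 0.013). On A_55_P2244142, which the array files assign to a cDNA clone with an apparent retained intron, it was 0.32 and 0.21 on the imatinib arrays, against -0.25 and -0.54 on the control arrays, a difference of 0.66 (SE 0.12, adjusted p = 0.020). The second probe had the larger change and the larger spread. Within an array the log2 ratio of the first to the second probe was 1.36 and 1.49 with imatinib, against 1.59 and 1.85 without, a ratio that differed by -0.29 (exact permutation test, two-sided p = 0.333, the smallest possible). Both calls ended without imatinib replicate 1 (adjusted p = 0.085 and 0.087) and without imatinib replicate 2 (adjusted p = 0.093 and 0.067), and also when dim probes were kept (adjusted p = 0.062 and 0.070). The first probe differed by 0.18 with median centring (adjusted p = 0.14) and by 0.09 with spike-in scaling (adjusted p = 0.43).

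Klf9, a factor that glucocorticoid and thyroid hormones induce and that restrains division of human B cells, was the gene that fell. Probe A_65_P19780 had -1.98 and -1.90 on the imatinib arrays, against -1.66 and -1.67 on the control arrays. Both imatinib arrays were lower, by a difference of -0.27 (SE 0.064, adjusted p = 0.035). The call ended without each array in turn (adjusted p = 0.087 to 0.19) and when dim probes were kept (adjusted p = 0.12), while median centring and spike-in scaling gave -0.46 and -0.55 (adjusted p = 0.0082 and 0.0035). Another probe under this name, A_55_P1994992, was not well above background on any array and was not tested. Its processed signal was 2.43 and 1.76 with imatinib, against 3.79 and 2.64 without.

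Klf2 and Klf9 were set side by side because they had the largest rise and the fall, so their ratio is a description. Within an array, the log2 ratio of the Klf2 to the Klf9 processed signal was 5.41 and 5.27 with imatinib, against 3.78 and 3.67 without. The ratio was higher by 1.61 on the imatinib arrays, a quantity into which no scaling enters.

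**Figure D2:**
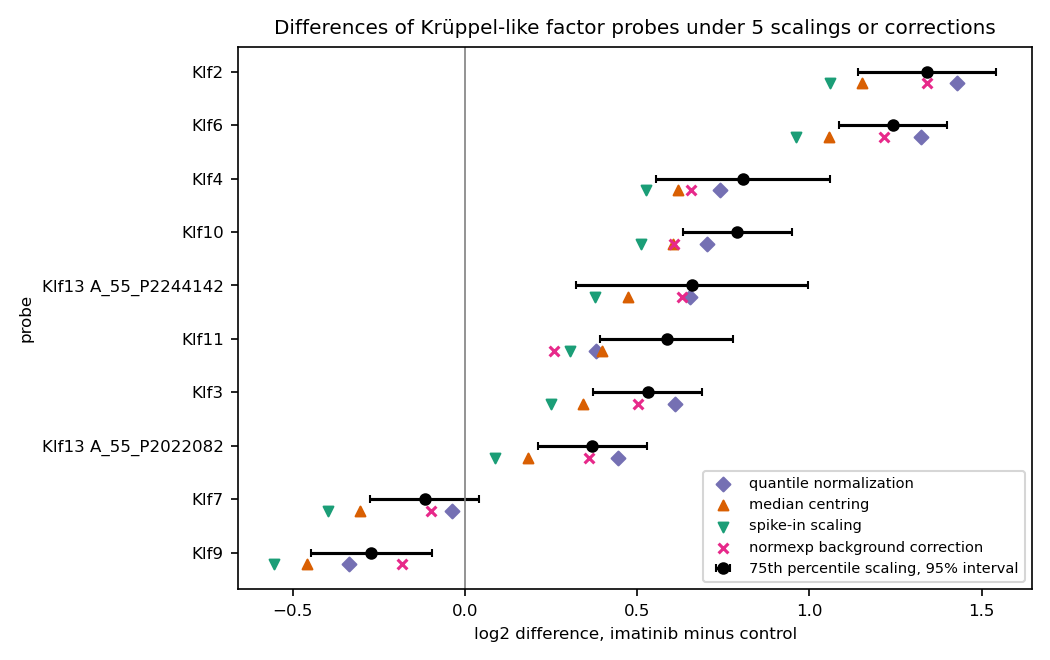
Log2 difference, imatinib minus control, for the 10 tested probes from the largest rise (top) to the fall (bottom). Black circles with bars are the estimates with 95% intervals from the limma fit, and coloured symbols are the estimates under 3 other scalings and 1 other background correction. Symbols of median centring and spike-in scaling sit left of the circles throughout, and Klf2 and Klf6 stay at or above 0.96 in each.

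The sequences before the gene starts were read to show which elements known to bind upstream regulators lie there. RefSeq promoters (assembly GRCm38.p6) were at hand for 8 of the 9 genes, Klf10 being the exception, and the 250 bases before each start were searched on both strands. The MEF2-type element, CTA and TAG with 4 bases of any kind between them, occurred in the Klf2 promoter alone among the 8, and in 3.2% of all 32851 promoters. The FOXO-type element GTAAACA occurred in the Klf9 promoter alone, and in 3.2% of all promoters as well. Both promoters are printed with that element in capitals. In mice, Klf2 is known as a target of the kinase ERK5 through MEF2 factors, and of FOXO1.
Klf2, chr8:72318812-72319061, plus strand, GRCm38.p6: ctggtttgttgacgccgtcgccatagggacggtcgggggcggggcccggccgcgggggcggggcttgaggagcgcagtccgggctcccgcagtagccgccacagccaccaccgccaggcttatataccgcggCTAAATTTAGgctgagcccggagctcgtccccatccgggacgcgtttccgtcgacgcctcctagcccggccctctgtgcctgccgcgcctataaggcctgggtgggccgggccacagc
Klf9, chr19:23140976-23141225, plus strand, GRCm38.p6: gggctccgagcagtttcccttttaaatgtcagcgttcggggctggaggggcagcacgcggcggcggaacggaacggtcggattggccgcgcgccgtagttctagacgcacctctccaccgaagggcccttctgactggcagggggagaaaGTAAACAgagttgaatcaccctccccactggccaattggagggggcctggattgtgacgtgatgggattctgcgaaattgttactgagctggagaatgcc

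In the Klf2 promoter the element spans bases 118 to 109 before the start, and in the Klf9 promoter bases 100 to 94. A match of letters is a description and no evidence of binding. The GC box GGGCGG, an element of Sp and Krüppel-like factors, was present in 7 of the 8 promoters (87.5%), against 32.7% of all. Klf9 was the one without. The 8 promoters had a median GC content of 71.4%, against 52.4% for all promoters, and the part of GC content in this count was not tested. The CACCC element was present in 5 of the 8 (62.5%), against 52.0% of all, with 5 copies for Klf3, and the STAT-type element, TTC and GAA around 4 bases of any kind, was in none of the 8 and in 5.9% of all.

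Factors upstream of the family went both ways. Of 10 tested genes of the FOXO group and of the MEK5-ERK5-MEF2 route, 3 rose and 3 fell, with a median of 0.14, which was -0.05 after median centring and -0.14 after spike-in scaling. Mef2a, a MEF2 factor, rose by 2.19 on its brightest probe, but its other probe differed by 0.21 (adjusted p = 0.15), so the gene is uncertain. Map3k2, a kinase that feeds the ERK5 route, rose by 0.74 (adjusted p = 0.0057), and Foxo1, a factor of quiescent lymphocytes, by 0.45 (adjusted p = 0.0087). Mef2b, a MEF2 factor of germinal centre B cells, fell by 0.60 (adjusted p = 0.0068). The ERK5 gene itself, Mapk7, differed by 0.03 and did not pass (adjusted p = 0.76).

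Of 17 other Krüppel-like and Sp genes on the array, 11 were bright enough to test. Among these, 4 rose and none fell, with a median of 0.17, which was -0.01 after median centring and -0.11 after spike-in scaling. Sp6, an epithelial factor, rose by 1.00 (adjusted p = 0.0044) and by 0.57 with normexp, Klf12, a repressor of the CtBP branch, by 0.47 (adjusted p = 0.014), and Sp4 and Sp8 by 0.41 each (adjusted p = 0.015 and 0.031). Klf1, Klf5, Klf14, Klf15, Sp5 and Sp9 did not reach the brightness filter. Sp1 and Sp3, the ubiquitous relatives that compete for GC boxes, differed by -0.01 and -0.08 and did not pass.

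Of 14 cofactor genes, 1 rose and 2 fell, with a median of -0.01, which was -0.20 after median centring and -0.29 after spike-in scaling. Ctbp2, one of the CtBP corepressors, rose by 1.06 (adjusted p = 0.0028), a difference that was 0.35 with normexp. Ctbp1 differed by 0.25 (adjusted p = 0.051). Fbxw7, a ubiquitin ligase subunit that marks Klf2 for destruction, fell by 0.54 (adjusted p = 0.0073), and Sap30 of the Sin3A complex fell by 0.43 (adjusted p = 0.0097). Sin3a and Sin3b differed by -0.03 and 0.01 and did not pass.

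Genes of lymphocyte traffic, several of them under the control of Klf2, had 4 rises and 1 fall among 6. Their median was 1.63, with 1.35 to 1.68 under the other scalings and 1.28 with normexp. Il7r, the receptor for the survival factor IL-7, rose by 2.21 (adjusted p = 9.5e-04), a value that was 1.20 with normexp. S1pr1, the sphingosine 1-phosphate receptor that guides lymphocytes out of lymphoid organs, had 0.17 and 0.16 on the imatinib arrays, against -1.92 and -2.11 on the control arrays. The groups stood apart by 2.18 (adjusted p = 9.2e-04). Itgb7, the integrin beta 7 chain of gut homing, rose by 1.90, and Ccr7, the lymph node homing receptor, by 1.36 (adjusted p = 0.0012 and 0.0021). S1pr4, another receptor of the same lipid, fell by 0.35 (adjusted p = 0.022).

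T cell markers were followed in the same arrays. Of 12 tested, 10 rose and none fell, with a median of 2.05, which was 1.77 after spike-in scaling and 1.55 with normexp. Their summed signal was 16.85 and 17.38 times the array's 75th percentile with imatinib, against 6.385 and 5.602 times without. Cd28, a costimulatory receptor, rose by 2.84, the CD8 chain Cd8a by 2.44, and Zap70 and Lat, which relay the T cell receptor signal, by 2.23 and 2.18, whereas Cd4 differed by 0.07 (adjusted p = 0.68). B cell markers had 1 rise and 5 falls among 9, with a median of -0.25, which was -0.44 after median centring and -0.53 after spike-in scaling. Their summed signal was 336.1 and 341.7 with imatinib, against 383.3 and 356.9 without. Cd79b and Blnk, the brightest of the 9, weigh most in this sum, and differed by -0.01 and 0.01 without passing. Cd22, Fcer2a and Pax5 fell by 1.05, 0.92 and 0.54, and Cr2, the complement receptor, rose by 0.54. The part of these shifts in the values of Klf2, Klf3, Klf13 and the traffic genes was not tested.

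Macrophage markers had 5 rises and no fall among 8 tested, with a median of 1.09, which was 0.52 with normexp. Their summed signal was 8.752 and 8.821 times the 75th percentile with imatinib, against 4.002 and 3.824 times without. Adgre1, which encodes F4/80, rose by 3.60, the scavenger receptor Marco by 2.81, Lyz2, lysozyme, by 2.81 and the LPS coreceptor Cd14 by 1.66 (1.40 for Lyz2 and 0.78 for Cd14 with normexp), whereas Csf1r and C1qb differed by 0.28 and -0.02 and did not pass, and C1qa, C1qc and Cd163 were too dim to test. Their part in the values of Klf4 and Klf6 was not tested.

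Genes reported as targets of single members rose in 5 of 7 tested cases and fell in 1, with a median of 0.79, which was 0.47 with normexp. Arg1, arginase of alternatively activated macrophages and a target of Klf4 in mice, was not above background without imatinib, with mean signals of -2.75 with imatinib and -8.65 without, and was at least 12.4-fold higher with imatinib (adjusted p = 6.7e-04 in the limma fit). It entered the fit through the imatinib arrays alone, so its place among the 5 rises is no support for a direction of the list. The bound is the imatinib mean against the higher of the dim probe's own signal and the lowest signal called above background on each control array. Mrc1, the mannose receptor of such macrophages, rose by 1.63 (adjusted p = 9.6e-04), or by 0.72 with normexp. Ccl5, the chemokine under Klf13 control in T cells, rose by 0.92 (adjusted p = 0.0043), and Thbd, thrombomodulin, by 0.79 (adjusted p = 0.015), or by 0.43 with normexp. Eng, which encodes endoglin, was the gene that fell, by 0.55 (adjusted p = 0.0088). In the same arrays the median of the macrophage markers was 1.09 (0.52 with normexp), and that of the T cell markers 2.05 (1.55 with normexp). Their part in these values was not tested.

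The TGF-beta pathway, which induces Klf10 and Klf11, had 7 rises and no fall among 13 genes, with a median of 0.30, which was 0.11 after median centring and 0.02 after spike-in scaling. Tgfbi, a matrix protein named for its induction by TGF-beta, rose by 2.30 (adjusted p = 8.2e-04), or by 1.40 with normexp. Smad7, the feedback inhibitor that Klf10 is known to repress, rose by 1.11 (adjusted p = 0.010). Ski, a corepressor of Smad proteins, was not above background without imatinib and was at least 1.72-fold higher (adjusted p = 0.018 in the limma fit). It too entered the fit through the imatinib arrays alone, so its place among the 7 rises is no support for a direction. Tgfbr1, a receptor chain, rose by 0.81 (adjusted p = 0.0050), while Tgfb1 itself differed by 0.15 and did not pass (adjusted p = 0.18).

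Cell cycle genes, both brakes and drivers of division, had 4 rises and 2 falls among 10. The list median was 0.09, which was -0.10 after median centring and -0.19 after spike-in scaling. Some of the genes are known to be controlled by Klf2 or Klf4, in opposite directions, so the counts and median do not measure that control. Cdkn1a, the inhibitor p21 that Klf4 and Klf2 induce, had 1.91 and 1.99 on the imatinib arrays, against 0.64 and 0.71 on the control arrays. It rose by 1.28 (SE 0.067, adjusted p = 0.0014), and by 0.53 on its other probe (adjusted p = 0.010). Btg1, an antiproliferative gene of resting lymphocytes, rose by 0.88 (adjusted p = 0.0030). Cdkn1c, the inhibitor p57, fell by 0.67 (adjusted p = 0.012), a difference of only -0.15 with normexp, and Myc, which Klf2 represses in T cells, fell by 0.60 (adjusted p = 0.013). The cyclin genes Ccnd2 and Ccnd3 differed by -0.05 and -0.02 and did not pass.

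**Figure D3:**
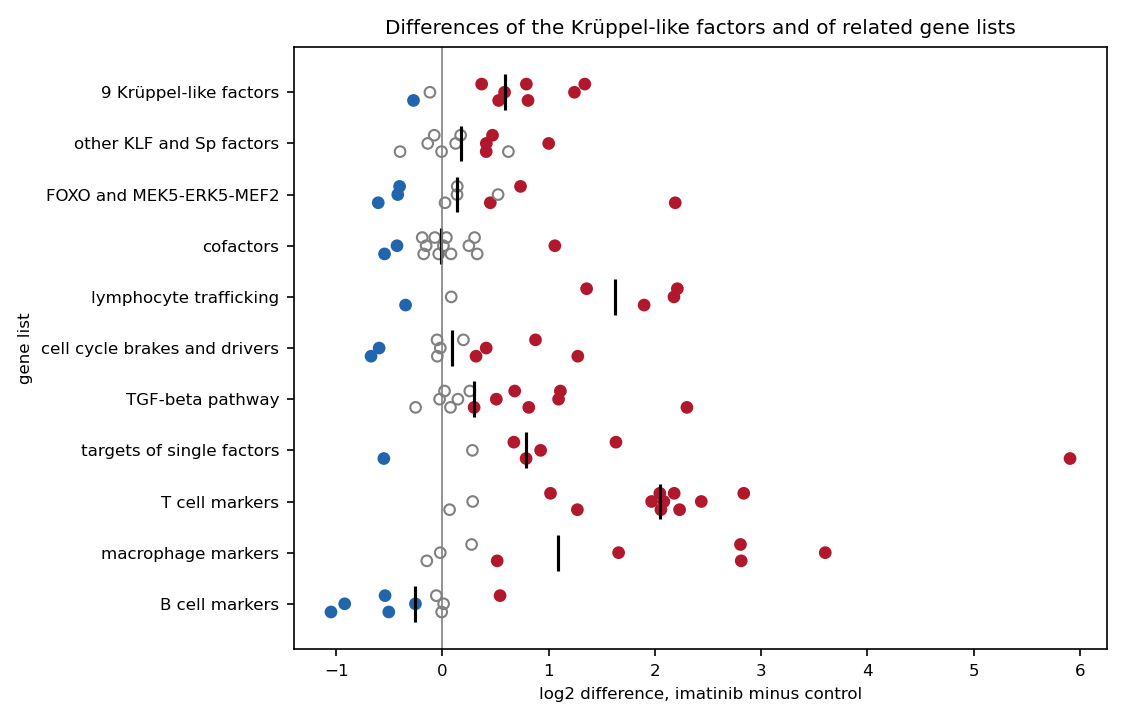
Log2 difference, imatinib minus control, of each tested gene (brightest probe) in the 9 Krüppel-like factors and in the gene lists. Filled points passed an adjusted p of 0.05 (red higher, blue lower with imatinib), open points did not, and vertical bars are list medians. The 9 factors have a median of 0.59, between 0.17 for the other family members and 2.05 for T cell markers, and the point farthest right is Arg1, which was not above background without imatinib, so that its plotted value is no measured fold, as with Ski in the TGF-beta pathway at 1.09.

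The genes whose 4 array values, centred on their mean, lay nearest to those of Klf2 were Aebp1, Ecm1 and Pnma2, at Euclidean distances of 0.018, 0.021 and 0.039 on the log2 scale. Over only 4 arrays in 2 groups this amounts to a like difference between groups (1.35, 1.36 and 1.33).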

How the data were processed

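RNA was measured on 4 Agilent arrays of design 026655. Per the file headers, the deposited scanner output is spot intensity from Feature Extraction 9.1.3.1, background-subtracted and detrended array by array, with no scaling across arrays. A deposited table of log2 values came from GeneSpringGX, per the series' design text. It matched the scanner values minus a constant within 0.01 for 99.88% to 99.93% of probes and served as an alternative. Here control spots and outlier spots were left out, log2 processed signals were averaged per probe, and the 75th percentile of each array (699, 678, 739 and 854 for imatinib 1 and 2 and control 1 and 2) was subtracted. Probes were tested if well above background on both arrays of a group (25465, of which 92 with a marked value were dropped). At gene level the brightest probe stood for its gene.

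Groups were compared with limma 3.58.1 in R 4.3.3 (lmFit and eBayes with 1 term, the group; two-sided), and p-values were Benjamini-Hochberg adjusted over all probes. SE and intervals are on the log2 scale, with 2 residual and 2.05 prior degrees of freedom. No spot was saturated, and the number of arrays limits precision. The code was tested on simulated data. Members and the gene lists (7 of pathways, 11 of cell types) were chosen with earlier results of these data known. List genes are named if called and among the 4 largest absolute differences. Of the lists under other observations, only some of these genes are named. S1pr4, Eng, Irf4 and the list genes named as not passing were added after their values were seen. The lists get counts and medians, not tests. The values of 1 gene of the traffic list are not reported here.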

Additional observations from a re-analysis of the deposited data

How the results depend on the processing

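Settings were the alternatives named in the report plus the deposited value table, quantile normalization and only probes above background on all 4 arrays. Over the 10 tested probes and 13 alternatives, 109 of 130 values kept direction and side of the threshold, 19 lost the call, 2 gained it and none changed sign. The count of family probes called higher was 8, and 4 to 8 with an array left out. It was 7 with median centring and with trend and robust fitting, and 6 with spike-in scaling and without a filter on dim probes. The count called lower was 1, 2 with median centring and 2 with spike-in scaling (Klf7 and Klf9), 0 without a filter on dim probes, 0 with the replicate block, and 0 with any array left out. Over all probes, 10622 passed (4905 higher, 5717 lower). Median centring gave 9251 lower, spike-in scaling 2802 higher and 11738 lower, no filter on dim probes 4971 in all (2837 higher, 2134 lower), and the replicate block 3510 lower. With an array left out, 4040 to 8878 passed, 2417 to 4706 higher and 1559 to 4172 lower. The replicate block ended the call of Klf9 and of no other family probe, with an adjusted p of 0.088. Same-numbered arrays did not deviate together (r = -0.07 across probes). With 2 arrays per group this cannot tell whether same-numbered samples were paired. The causes were not tested. Klf11, the dimmest tested probe, differed by 0.59, and by 0.26 with normexp.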

Other observations

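Markers of other cells were followed beside the Krüppel-like factors. Mast cell and basophil markers had 4 rises among 4 tested, but Mcpt8 and Cpa3 entered the fit through the imatinib arrays alone, so the count is no support for a direction, and Fcer1a, Ms4a2 and Cma1 were too dim to test. Their median was 1.52, or 0.91 with Mcpt8 and Cpa3 at their lower bounds of 1.32-fold and 1.57-fold, and 0.65 with normexp. Kit rose by 1.77, or by 0.81 with normexp. Tpsb2 rose by 1.18 on its brightest probe, but its other probe differed by 0.04 (adjusted p = 0.89 in the limma fit), so the gene is uncertain.

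Neutrophil markers had 4 rises and 1 fall among 6, with a median of 0.72 (0.34 with normexp). S100a9, 1 of the 4, was well above background on only 3 arrays and was dimmer on both control arrays. It entered the fit through the imatinib arrays alone, so the count is no support for a direction. S100a8 of calprotectin rose by 3.26 (1.41 with normexp), while Ly6g fell by 0.59. Their summed signal was 2.704 and 3.0 times the array's 75th percentile with imatinib, against 3.512 and 3.261 times without. The sum was lower with imatinib although the median difference was above 0. Ly6g, the brightest of the 6, weighs most in this sum. It had log2 signals of 0.64 and 0.79 with imatinib, against 1.33 and 1.29 without. Plasma cell markers had 3 rises and 2 falls among 6: Jchain and Tnfrsf17 fell by 0.85 and 0.70, and Xbp1, Prdm1 and Irf4 rose by 0.56, 0.26 and 0.23. Their median was 0.10, and -0.09 after median centring and -0.18 after spike-in scaling, and their summed signal was 168.5 and 158.5 with imatinib, against 155.7 and 152.7 without.

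NK cell markers had 2 rises and 1 fall among 3. Their median of 0.37 was 0.18 after median centring and 0.09 after spike-in scaling. The fall was that of Klrd1, a dim probe, by 0.39, and its difference was 0.11 with normexp. Dendritic cell markers had 1 rise and 1 fall among 4, with a median of 0.15 that was -0.04 after median centring and -0.13 after spike-in scaling. Flt3 fell by 1.41, and Itgax, which entered the fit through the imatinib arrays alone, was at least 2.54-fold higher. Erythroid markers had 2 rises among 3 (median 0.62), in arrays on which Klf1, the erythroid member of the family, was not bright enough to test. Of 3 endothelial and stromal markers none passed, with a median of 0.13 that was -0.05 after median centring and -0.15 after spike-in scaling. Of 3 megakaryocyte markers Pf4 rose, by 4.35. The list median of 1.05 (0.26 with normexp) is the value of Itga2b, which did not pass (adjusted p = 0.12 in the limma fit). Its probe was well above background on only 3 arrays and was dimmer on both control arrays. Itga2b entered the fit through the imatinib arrays alone, so the median is no support for a direction. Gp1bb differed by 0.20 and did not pass. The part of these cells in the values of the family was not tested.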
